A study of Bos taurus with 16 samples.

Results

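Genes of fatty acid and lipid handling were followed in the prefrontal cortex (PFC) of 16 bulls, namely SCD, ABCA1, ABCA9, ACSS1, ACSM5 and ABHD3. They are 6 of 27607 annotated genes, and 6 of the 1048 symbols of the study's differentially expressed gene (DEG) list that could be paired with a single gene by position. All 6 passed the filter on low values, a mean of at least 0.1 FPKM, which left 16587 genes for testing. FPKM divides a gene's fragments by its exon length and by the size of the library, so levels can be compared between genes. The study put these genes on its list from the same animals, 5 as higher and ABCA9 as lower in the aggressive group. Their difference between the breeds is therefore given as a description. No p-value is printed for it, and calls and intervals from the fit are shown only beside those of all genes or for size.

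The aggressive group held 8 bulls of the Lidia breed, 4 from the farm La Quinta and 4 from Montealto, and the non-aggressive group held 8 Wagyu bulls from 1 farm. All animals were uncastrated males aged 3 years, apart from Montealto 4, which was 4 years old. Lidia animals are numbered here within each farm in the order of the number in their label. Each animal gave 1 library of total RNA from the right dorsal PFC. Lidia bulls had been incited before death and were sampled at the bullring, while Wagyu bulls came from a slaughterhouse. Both breeds were fed concentrates after grazing on pasture, the Lidia bulls only in their last months and the Wagyu bulls for longer. Breed, farm, feeding and handling before death cannot be told apart.

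The genes cover different parts of lipid metabolism. Stearoyl-CoA desaturase, the product of SCD, sits in the endoplasmic reticulum and puts a double bond into saturated fatty acids to make oleate and palmitoleate, which the brain needs in quantity for membranes and myelin. ACSS1 encodes a mitochondrial synthetase that turns acetate into acetyl-CoA, and ACSM5 a mitochondrial synthetase assigned to the medium-chain acyl-CoA family. ABCA1 exports cholesterol and phospholipid to apolipoproteins, in the brain mainly to APOE released by astrocytes. ABCA9 belongs to the same family of membrane transporters and is less well understood. ABHD3 is a lipase of the alpha/beta hydrolase family that acts on phospholipids with medium-chain or oxidised acyl groups.

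On the ARS-UCD 1.2 assembly, SCD (ENSBTAG00000055207) lies at chr26:21263727-21279185 on the plus strand and ABCA1 (ENSBTAG00000020661) at chr8:94603862-94719841 on the minus strand. ABCA9 (ENSBTAG00000006896) lies at chr19:61493353-61539725 on the plus strand and ACSS1 (ENSBTAG00000004281) at chr13:42622174-42666487 on the minus strand. ACSM5 (ENSBTAG00000037449) lies at chr25:18090665-18119714 and ABHD3 (ENSBTAG00000005709) at chr24:34541295-34591097, both on the plus strand. No other annotated gene overlapped any of these loci. SCD, ABCA1, ABCA9 and ABHD3 each had 1 annotated transcript, with 6, 50, 36 and 9 exons. Of the 4 transcripts of ACSS1, the one of 14 exons carried 97.1% ± 4.1 of the gene's FPKM in the Lidia group and 97.1% ± 5.4 in the Wagyu group (SD, n = 8 each). Of the 2 transcripts of ACSM5, the one of 12 exons carried 83.1% ± 10.8 and 83.2% ± 7.7, so transcript use was near equal in the breeds.

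The depth, read from coverage and FPKM, was 7.67 M to 37.0 M fragments per animal, where M stands for 1e6. Beyond the division by library size, the deposited values carry no scaling between animals, and 2 animals stood apart from the others. The FPKM sum was 567732 in Wagyu 5 and 439325 in La Quinta 4, against 172575 to 244276 in the other animals. By the same estimate of depth these 2 were also the shallowest, at 7.67 M and 13.7 M fragments. Levels are therefore given after median-of-ratios rescaling, which divided these animals by 2.19 and 1.77, and results that change without it or without these animals are stated. The shallowest gene was ABCA9, with 12.2 to 70.7 estimated fragments per animal, whereas SCD in Wagyu 1 rested on 2251.

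SCD was by far the most abundant of the 6 genes, and ABCA9 the least. In the Lidia group the mean levels were 29.2 ± 8.0 FPKM for SCD, 8.44 ± 1.81 for ABHD3, 1.87 ± 1.01 for ABCA1, 1.39 ± 0.51 for ACSM5, 1.37 ± 0.34 for ACSS1 and 0.157 ± 0.054 for ABCA9 (SD, n = 8). In the Wagyu group they were 20.5 ± 3.7, 6.01 ± 1.12, 1.23 ± 0.36, 0.905 ± 0.404, 0.791 ± 0.240 and 0.344 ± 0.067 FPKM in the same order of genes (SD, n = 8). Neighbours in the order of mean log2 level were compared within animals on log2(FPKM + 0.1) by an exact two-sided sign-flip permutation test, in 10 comparisons. SCD exceeded ABHD3 in 8 of 8 animals of each breed, by 1.75 log2 units in the Lidia group and 1.76 in the Wagyu group (adjusted p = 0.0112 for each, from the smallest p that 8 animals allow). ABHD3 exceeded ABCA1 by 2.22 and 2.23 log2 units with the same p (exact permutation test).

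The middle of the order was less settled. ABCA1 and ACSS1 in the Lidia group differed by 0.32 ± 0.61 log2 units, with ABCA1 higher in 4 of 8 animals (exact permutation, adjusted p = 0.225). ACSS1 and ACSM5 differed by less than their spread in both breeds (exact permutation, adjusted p = 0.836 in the Lidia group and 0.677 in the Wagyu group). In the Wagyu group ABCA1 exceeded ACSM5 in 8 of 8 animals, by 0.46 log2 units (exact permutation, adjusted p = 0.0112). ABCA9 was below the gene before it in 8 of 8 animals of each breed, although in Wagyu 7 it was above ACSM5 (0.386 against 0.336 FPKM). Its distance to the next gene was 2.48 log2 units below ACSM5 in the Lidia group but 0.98 below ACSS1 in the Wagyu group.

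**Figure D1:**
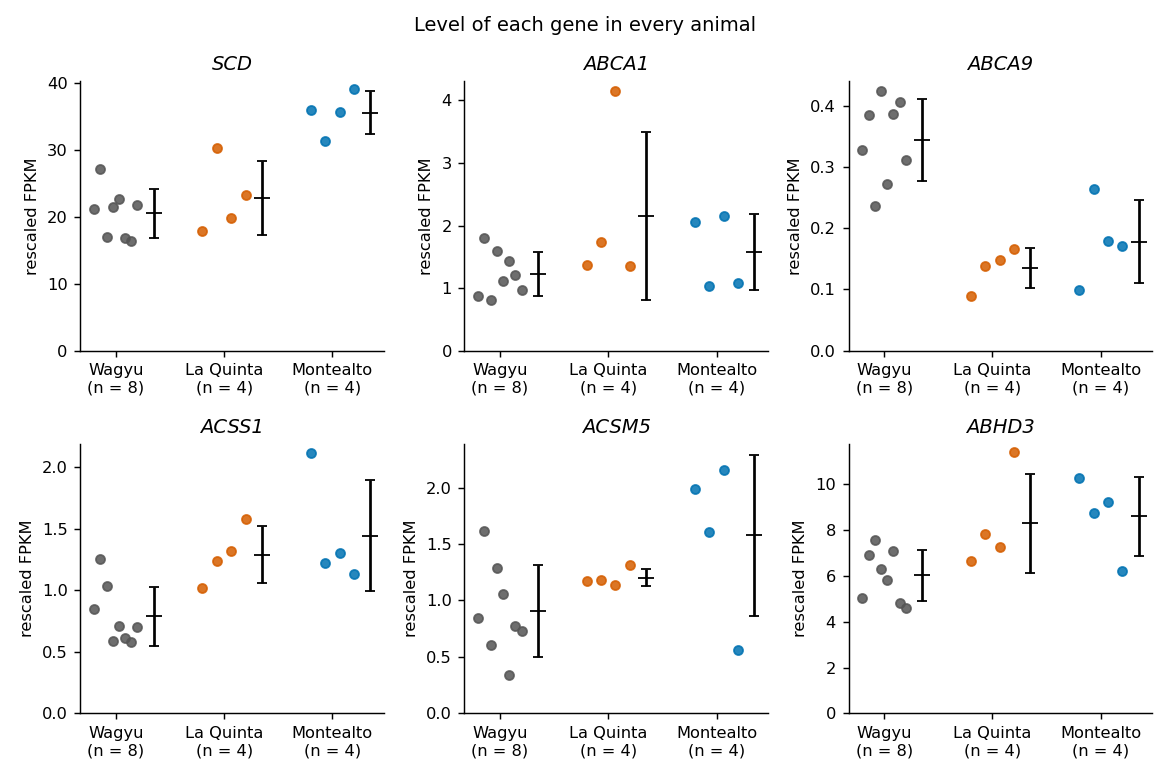
Rescaled FPKM (vertical axes, linear and starting at 0) of the 6 genes in each animal, by group on the horizontal axes; each point is 1 animal and the bar beside it the mean ± SD. The 4 Montealto values of SCD lie above all Wagyu and all La Quinta values, and 1 La Quinta animal stands at 4.14 FPKM for ABCA1.

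SCD, whose product makes monounsaturated fatty acids, was higher in every Montealto animal than in any La Quinta animal after rescaling, but not on FPKM as deposited, where the farms overlapped (16.8 to 41.0 FPKM in La Quinta and 19.2 to 38.5 in Montealto). SCD was at 17.8, 30.3, 19.8 and 23.2 FPKM in La Quinta 1, 2, 3 and 4, and at 35.98, 31.3, 35.7 and 39.1 FPKM in Montealto 1, 2, 3 and 4. The Wagyu range was 16.4 to 27.2 FPKM, with a median of 21.2. After rescaling, all 4 Montealto animals were also above all 8 Wagyu animals, while 3 of the 4 La Quinta animals lay within the Wagyu range.

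Between the breeds, SCD was 0.47 ± 0.17 log2 units higher in the Lidia group (± is the standard error of the fit here and for log2 fold changes below), or 1.39-fold. The difference from the Wagyu group was 0.14 ± 0.15 in La Quinta and 0.80 ± 0.15 in Montealto. Without La Quinta 2 the La Quinta value was -0.01, so its sign rested on that animal, and without La Quinta 1 it was 0.25.

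ACSS1, which feeds acetate into mitochondrial acetyl-CoA, had the widest gap to the Wagyu group among the 5 genes listed as higher, although not at every setting. Without Wagyu 5 and La Quinta 4 it stood at 0.65 log2 units and ACSM5 at 0.67. With a pseudocount of 1 it stood at 0.40, SCD at 0.46 and ABHD3 at 0.42. It was at 1.02, 1.24, 1.32 and 1.58 FPKM in the 4 La Quinta animals and at 2.12, 1.23, 1.31 and 1.13 FPKM in the 4 Montealto animals. Wagyu animals ranged from 0.581 to 1.25 FPKM, with a median of 0.706. After rescaling, 4 of the 8 Lidia animals lay above the whole Wagyu group, and 6 of the 8 Wagyu animals lay below the whole Lidia group. On FPKM as deposited the highest Wagyu value was 1.31, and only La Quinta 4 at 2.80 and Montealto 1 at 2.26 were above it. The log2 fold change was 0.73 ± 0.16 between the breeds, 0.67 ± 0.20 for La Quinta and 0.79 ± 0.20 for Montealto.

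After rescaling, ACSM5 varied about as much in the Montealto as in the Wagyu animals, and little in La Quinta. It was at 1.17, 1.18, 1.14 and 1.31 FPKM in La Quinta 1, 2, 3 and 4, a coefficient of variation of 6.37%. In Montealto 1, 2, 3 and 4 it was at 1.99, 1.61, 2.15 and 0.562 FPKM, a coefficient of variation of 45.3%. The lowest of these was the animal aged 4 years. The Wagyu animals ranged from 0.336 to 1.62 FPKM, with a median of 0.809 and a coefficient of variation of 44.7%. All 4 La Quinta animals lay inside that range. The narrow spread in La Quinta did not hold on FPKM as deposited. There it ran from 0.962 to 2.32 FPKM in La Quinta and from 0.535 to 2.12 in Montealto. The log2 fold change between the breeds was 0.59 ± 0.27.

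Of the 2 transporters, ABCA1 overlapped widely between the breeds and ABCA9 hardly at all. ABCA1 was at 1.37, 1.74, 4.14 and 1.36 FPKM in La Quinta 1, 2, 3 and 4, and at 2.06, 1.04, 2.15 and 1.08 FPKM in Montealto 1, 2, 3 and 4. The Wagyu animals ranged from 0.818 to 1.80 FPKM, with a median of 1.16, so 5 of the 8 Lidia animals lay inside the Wagyu range. On FPKM as deposited Wagyu 5 was at 3.49, and only La Quinta 3 at 3.50 was above it. The log2 fold change was 0.48 ± 0.24 between the breeds, and 0.30 without La Quinta 3.

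ABCA9 was at 0.0898, 0.138, 0.148 and 0.166 FPKM in the 4 La Quinta animals and at 0.0989, 0.263, 0.180 and 0.171 FPKM in the 4 Montealto animals. In the Wagyu group it ranged from 0.237 to 0.424 FPKM, with a median of 0.357. After rescaling, only Montealto 2 reached into the Wagyu range, and the other 7 Lidia animals were below it. On FPKM as deposited the lowest Wagyu value was 0.224. There La Quinta 4 lay above it at 0.293, and Montealto 2 below it at 0.161. The ratio of the mean levels was 0.456. The log2 fold change of -0.80 ± 0.15 is on the scale of FPKM + 0.1, and for a gene this low it became -1.12 with 0.01 and -0.22 with 1 added. It was -0.91 ± 0.18 for La Quinta and -0.69 ± 0.18 for Montealto. In the order of genes of another assembly, ARS-UCD2.0 of RefSeq, ABCA9 lies near ABCA6, ABCA10 and ABCA5, members of the same family. Here the genes on either side were at a mean of 0.0630 and 0.0315 FPKM, under the filter. How reads shared between family members were assigned was not tested.

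ABHD3, the phospholipid lipase, was at 6.63, 7.84, 7.24 and 11.4 FPKM in the 4 La Quinta animals and at 10.2, 8.73, 9.21 and 6.19 FPKM in the 4 Montealto animals. The range in the Wagyu group was from 4.61 to 7.54 FPKM, with a median of 6.07. After rescaling, 5 of the Lidia animals were above the whole Wagyu group, and the lowest Lidia animal was again Montealto 4. On FPKM as deposited Wagyu 5 was at 13.8, and only La Quinta 4 at 20.2 was above it. The lowest Lidia animal was then Montealto 2 at 5.34. The log2 fold change was 0.47 ± 0.14 between the breeds, 0.44 ± 0.17 for La Quinta and 0.51 ± 0.17 for Montealto. Without La Quinta 4, the highest animal, the La Quinta value was 0.28.

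**Figure D2:**
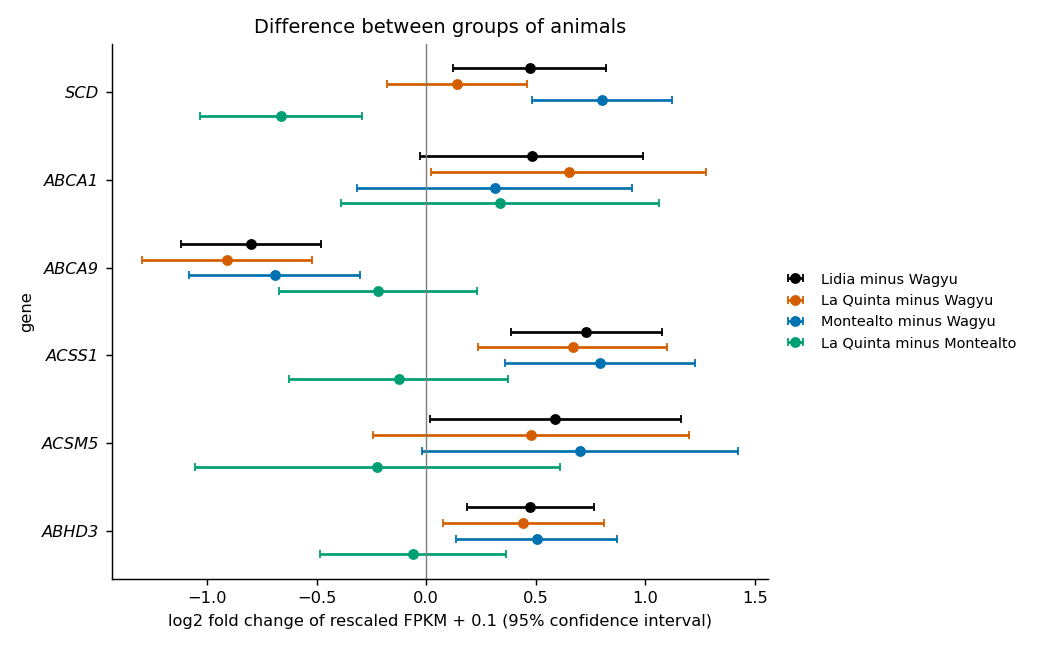
Log2 fold change (horizontal axis, FPKM + 0.1) of the 6 genes (vertical axis) in 4 comparisons; points are fitted values and bars 95% confidence intervals from limma. The comparisons with the Wagyu group share its 8 animals. For SCD the Montealto value of 0.80 lies far from the La Quinta value of 0.14, and ABCA9 is below 0 in both.

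By limma with Benjamini-Hochberg adjustment over all genes tested (adjusted p at most 0.05, absolute log2 fold change at least 0.1), 2 of the 6 genes, ABCA9 and ACSS1, were called between the breeds, where 4.98% of all genes were. ABCA9 was called between La Quinta and the Wagyu group, where 1.13% of genes were, and SCD between Montealto and the Wagyu group, where 1.77% were. None of the 6 had breed groups without overlap, against 0.705% of all genes. The members were chosen on this contrast, and nothing is read from these counts. On FPKM as deposited 0 genes were called between the breeds by limma, with 1022 at an unadjusted p under 0.05, while the log2 fold changes of the 6 genes kept their directions (0.43 for SCD, 0.44 for ABCA1, -0.85 for ABCA9, 0.69 for ACSS1, 0.55 for ACSM5 and 0.43 for ABHD3).

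The comparison of the 2 Lidia farms is not the one on which the genes were listed, and it could be tested. SCD was 0.66 ± 0.17 log2 units lower in La Quinta than in Montealto (95% confidence interval -1.03 to -0.30). After rescaling the farms did not overlap for SCD, which held for 3.61% of all genes. The exact two-sided permutation test gave p = 0.0286, the smallest that 4 against 4 animals allow, for 1 of 6 genes so tested. On FPKM as deposited the same exact permutation test gave p = 0.371, and limma an unadjusted p of 0.437. Across all genes SCD did not pass (limma, unadjusted p = 0.00154, adjusted p = 0.438). An unadjusted p under 0.05 was reached by 5.88% of all genes, and 0.0904% of genes were called, none of them among the 6.

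The difference of SCD kept its sign under every alternative tried, at -0.31 on FPKM as deposited and between -0.81 and -0.52 under the others. The remaining 5 genes differed between the farms by less than their spread. Their log2 fold changes for La Quinta minus Montealto were 0.34 ± 0.34 for ABCA1, -0.22 ± 0.21 for ABCA9, -0.13 ± 0.24 for ACSS1, -0.22 ± 0.39 for ACSM5 and -0.06 ± 0.20 for ABHD3 (limma, adjusted p from 0.868 to 0.961). Their intervals were wide, and for ACSM5 ran from -1.06 to 0.61. All but ABCA1 of these 5 changed sign on FPKM as deposited.

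The levels of markers of other cells are set beside SCD. Oligodendrocytes make myelin, and 12 of their 13 named markers had lower fitted values in La Quinta, with a median log2 fold change of -0.54 against -0.01 over all genes tested, and 0 of 13 called. Their summed level was 166 to 242 FPKM in La Quinta, 232 to 558 FPKM in Montealto and 118 to 345 FPKM in the Wagyu group. Markers of meningeal and perivascular fibroblasts went the other way, with 9 of 10 fitted higher in La Quinta and a median of 0.59. The median was 0.07 for endothelial and mural, -0.06 for astrocyte, 0.05 for neuron and -0.22 for microglial markers. Between the farms 0 markers of these lists were called. The choroid plexus list had 2 named genes, TTR and FOLR2. Their sum was 2.41 to 3.48 FPKM in La Quinta, 8.73 to 20.01 FPKM in Montealto and 0.836 to 10.5 FPKM in the Wagyu group. The farms did not overlap in this sum. The difference lay mainly in TTR, with a log2 fold change of -2.92 ± 0.93, against -0.13 ± 0.38 for FOLR2. The farm gap in the sum is thus close to that of 1 gene, and how well it follows choroid plexus cells was not tested. Within the Wagyu group SCD and the oligodendrocyte sum had a Pearson r of 0.08, and in the Lidia group 0.50, or 0.04 once each farm was centred on its mean. With the choroid plexus sum r was -0.13 in the Wagyu group and 0.72 in the Lidia group, or -0.48 with farms centred. With the astrocyte sum r was 0.76 in the Wagyu group and 0.19 in the Lidia group. Without the 2 animals farthest from the median, r in the Wagyu group was -0.23 for the oligodendrocyte, -0.01 for the choroid plexus and 0.16 for the astrocyte sum. In the Lidia group it was then 0.90, 0.755 and 0.52 in the same order. None of these correlations of SCD over 8 animals passed adjustment. The part of these cells in the SCD difference was not tested. In tissue RNA, fewer cells of a type and less RNA per cell cannot be told apart.

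The wider lipid pathways were followed through 6 lists with 135 symbols, of which 35 could be named and tested, 29 of them besides the 6 genes. Symbols came from the study's own DEG list, so the breed directions of these 29 (25 higher and 4 lower in the Lidia group) were set by that choice. Between the farms limma called 0 of the 29, and at an unadjusted p under 0.05 it also found 0. Fitted values were lower in La Quinta for 24 of the 29, with a median of -0.19, where 51.7% of all genes tested were lower. On FPKM as deposited 8 of the 29 were lower.

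Among the 4 fatty acid synthesis genes other than SCD, 3 had lower values in La Quinta, and 0 passed the test. MID1IP1, an activator of acetyl-CoA carboxylase, was at 20.8 FPKM in La Quinta and 24.2 in Montealto, a log2 difference of -0.21 ± 0.16. SLC25A1, the mitochondrial citrate carrier, stood at -0.24 ± 0.18. ELOVL2, which elongates polyunsaturated fatty acids, had the opposite sign at 0.30 ± 0.31. SLC27A1, a fatty acid transport protein, was at -0.30 ± 0.21.

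Of the 6 lipoprotein genes 5 had lower values in La Quinta, with a list median of -0.14, and 0 passed. APOE, the main apolipoprotein of the brain and an acceptor of lipid from ABCA1, was at 508 FPKM in La Quinta and 773 in Montealto (log2 difference -0.49 ± 0.28). LCAT, which esterifies cholesterol on lipoproteins, stood at -0.46 ± 0.26, whereas CLU, LRP10, LIPG and APOA1 stood between -0.19 and 0.08. FA2H and UGT8, which make the hydroxylated fatty acids and galactolipids of myelin, stood at -0.70 ± 0.37 and -0.41 ± 0.28 (limma, adjusted p = 0.8287 and 0.8388). Of the 4 cholesterol genes 3 had lower values in La Quinta, among them DHCR7, a late enzyme of cholesterol synthesis, at -0.29 ± 0.14, and 0 passed.

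**Figure D3:**
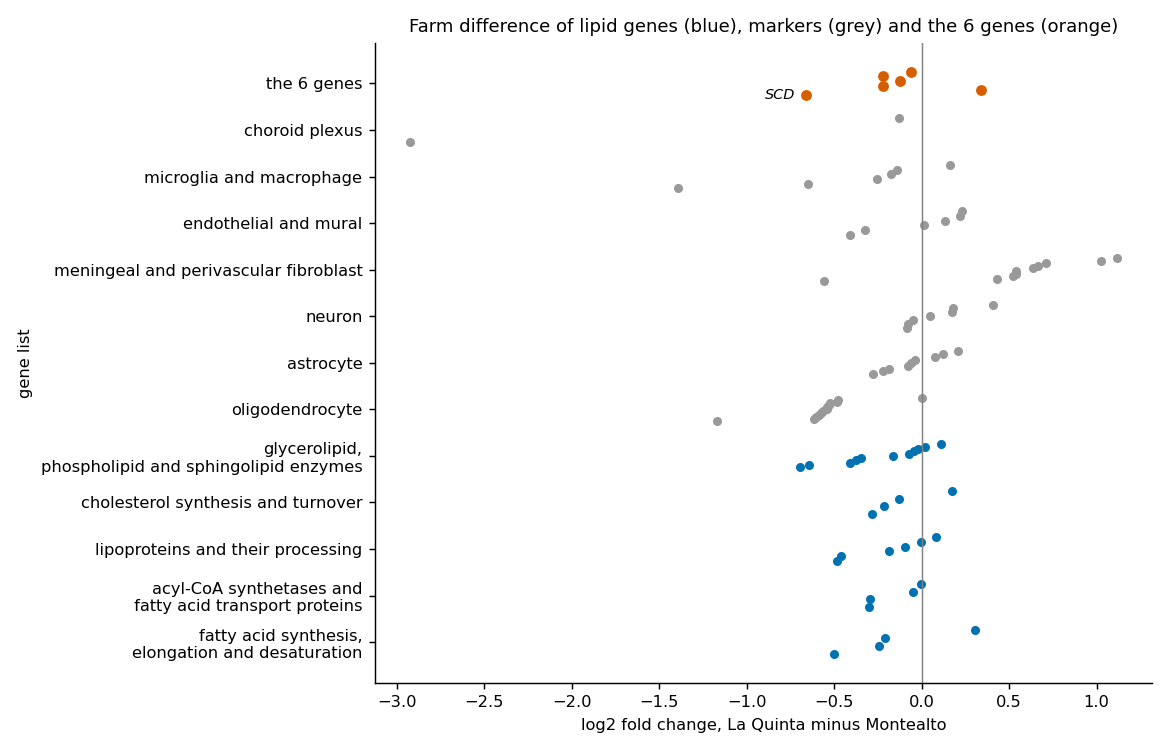
Log2 fold change of La Quinta minus Montealto (horizontal axis) for the named genes of each list (vertical axis); each point is 1 gene, blue for lipid lists, grey for cell type markers and orange for the 6 genes. Of the 6, SCD lies farthest to the left at -0.66, and 12 of 13 oligodendrocyte markers are left of 0.

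Covariation of the 6 genes from animal to animal was measured within each breed on log2(FPKM + 0.1), with 15 pairs per breed. The median Pearson r was 0.16 in the Lidia group, with 12 of 15 above 0, and 0.33 in the Wagyu group, with 10 of 15 above 0. The median r of the 6 genes with all genes tested was 0.02 in the Lidia group and 0.00 in the Wagyu group. By exact permutation over 8 animals, 2 pairs in each breed had an unadjusted p under 0.05, and 0 of the 30 correlations passed adjustment.

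In the Lidia group the 2 pairs joined ABHD3 with the synthetases. ACSS1 and ABHD3 had r = 0.77 (exact permutation p = 0.0182, adjusted p = 0.273) and Spearman rho = 0.79 (exact permutation p = 0.0279, adjusted p = 0.419). Pearson r was 0.85 without the 2 animals farthest from the median of ACSS1 and 0.77 with each farm centred. ACSM5 and ABHD3 had r = 0.72 (exact permutation p = 0.0384, adjusted p = 0.288) and rho = 0.81 (exact permutation p = 0.0218, adjusted p = 0.419). Here r was 0.61 without the 2 farthest animals and 0.72 with farms centred. In the Wagyu group the same pairs had r = 0.43 and r = -0.09, and the difference between the breeds was not tested.

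In the Wagyu group other pairs stood out. SCD and ACSM5 had r = 0.81 (exact permutation p = 0.0145, adjusted p = 0.273) and rho = 0.69 (exact permutation p = 0.0694, adjusted p = 0.498). Without the 2 animals farthest from the median of SCD, r was 0.82. ABCA1 and ABCA9 had r = 0.77 within the Wagyu group (exact permutation p = 0.0290, adjusted p = 0.288) and rho = 0.74 (exact permutation p = 0.0458, adjusted p = 0.458). Without the 2 animals farthest from the median of ABCA1, r was 0.70. In the Lidia group these pairs had r = 0.08 and r = -0.30.

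On FPKM as deposited, where Wagyu 5 and La Quinta 4 keep their raised sums, 11 of the 30 pairs had an adjusted p of at most 0.05 by exact permutation, among them all 4 pairs above, against 0 after rescaling.

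**Figure D4:**
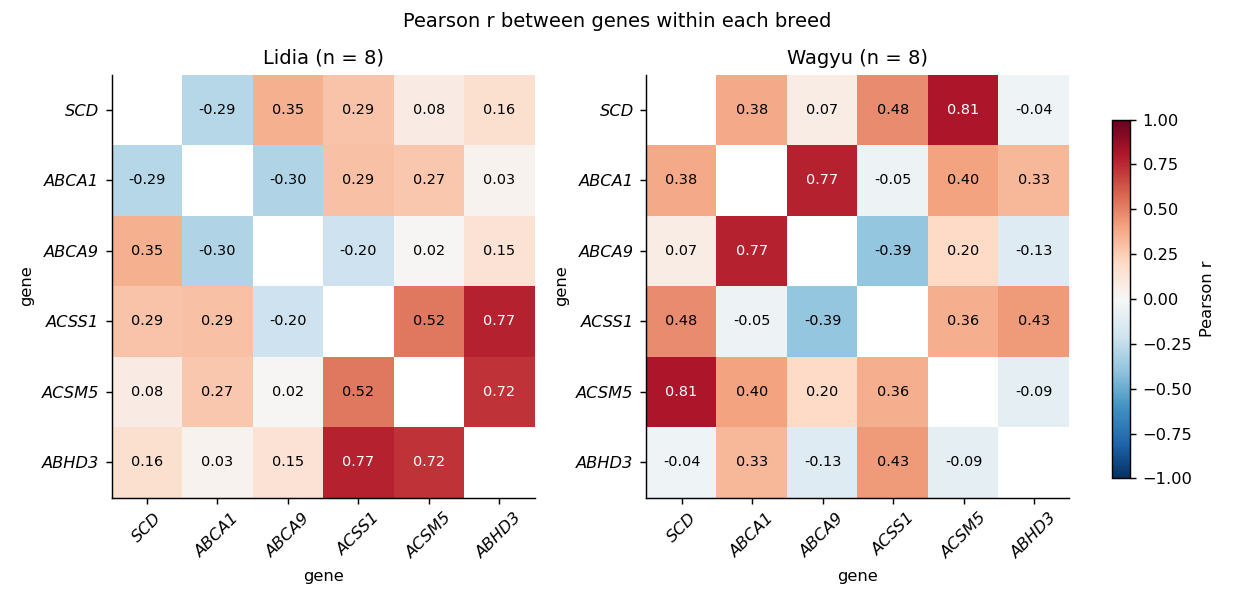
Pearson r between each pair of the 6 genes (both axes) over the 8 animals of each breed; colour and printed value give r. The Lidia panel has its highest values at ABHD3 with ACSS1 and ACSM5 (0.77 and 0.72), the Wagyu panel at SCD with ACSM5 and ABCA1 with ABCA9 (0.81 and 0.77).

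Cell type markers were set beside the 6 genes in the same way, 7 lists against 6 genes in 2 breeds. Of 84 correlations, 13 had an unadjusted p under 0.05 and 0 passed adjustment (exact permutation). ACSS1 accounted for 7 of the 13. With the summed level of 9 named astrocyte markers it had r = 0.89 in the Wagyu group (exact permutation p = 0.000843, adjusted p = 0.0708), rho = 0.88 (exact permutation p = 0.00724, adjusted p = 0.304), and r = 0.76 without the 2 farthest animals. In the Lidia group r was 0.76 (exact permutation p = 0.0251, adjusted p = 0.258), rho 0.60 (exact permutation p = 0.132, adjusted p = 0.718), 0.50 without the 2 farthest animals and 0.74 with farms centred. With 7 neuron markers ACSS1 had r = -0.82 in the Lidia group (exact permutation p = 0.00751, adjusted p = 0.210), or -0.75 without the 2 farthest animals. In the Wagyu group this r was -0.27, or 0.60 without the 2 farthest animals. The other 4 of the 7 were with fibroblast, endothelial and mural, and microglial markers. With fibroblast markers r was 0.75 in the Lidia group, or 0.90 with farms centred, and 0.79 in the Wagyu group, where it was -0.78 without the 2 farthest animals. In the Wagyu group r was 0.80 with endothelial and mural markers, or -0.05 without the 2 farthest animals, and 0.74 with microglial markers.

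The astrocyte sum was 263 to 635 FPKM in the Wagyu group, 442 to 599 in La Quinta and 428 to 695 in Montealto, and 9 of 9 astrocyte markers were fitted higher in the Lidia group, as the choice of symbols from the DEG list sets. The neuron sum was 277 to 429 FPKM in the Wagyu group and 227 to 344 in the 8 Lidia animals, so neuronal markers were present in every animal. The sum of 10 markers of meningeal and perivascular fibroblasts was 5.66 to 26.0 FPKM in the Wagyu group and 13.1 to 83.0 in the Lidia group, that of 6 endothelial and mural markers 16.0 to 36.6 and 30.5 to 113, and that of 6 microglial markers 14.6 to 36.00 and 30.3 to 51.9. The part of cell type makeup in the breed differences of the 6 genes was not tested. None of the 5 adipocyte markers could be named.

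**Figure D5:**
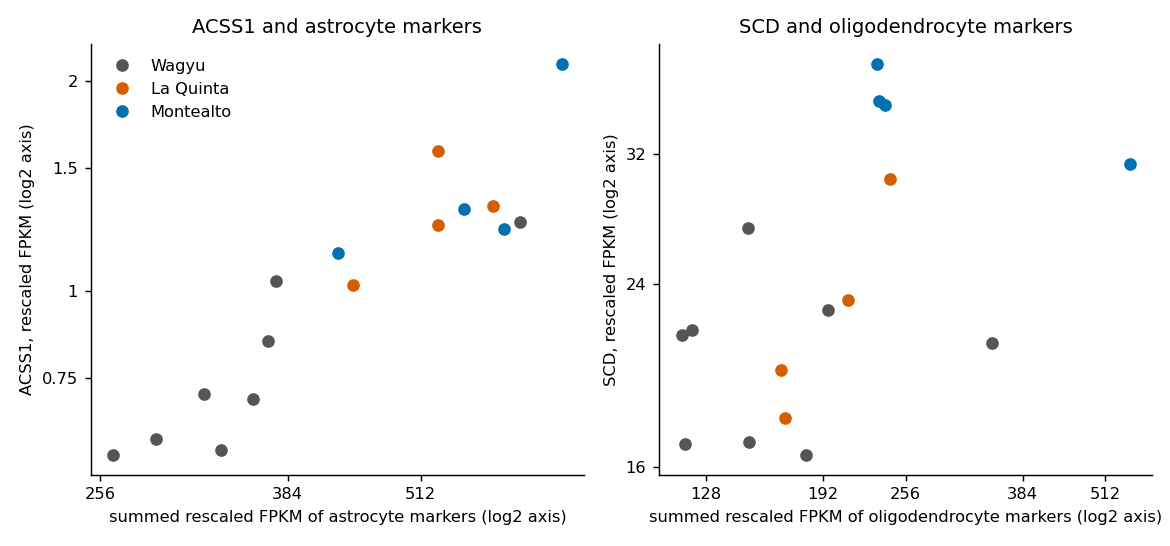
Level of ACSS1 against the summed astrocyte markers, and of SCD against the summed oligodendrocyte markers (both in rescaled FPKM on log2 axes); each point is 1 animal, coloured by farm. The r of ACSS1 with the astrocyte sum is 0.89 in Wagyu and 0.76 in Lidia, neither of which passed adjustment, while the 4 Montealto animals have the highest SCD at oligodendrocyte sums of 232 to 558 FPKM.

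Genes most like each of the 6 were sought among the named genes by Pearson r over the 16 animals after each breed was centred on its mean, as a description. ACSS1 had the closest, TMEM51 at r = 0.94, which no other gene tested exceeded, followed by BAG3 at 0.89 and RAB34 at 0.88. ABHD3 went with FIBIN at 0.82, ARSD at 0.81 and FGFR3, a fibroblast growth factor receptor, at 0.78. ABCA1 went with COL12A1, a collagen chain, at 0.82, CD302 at 0.79 and PLEKHH2 at 0.78. SCD went with EPPK1 at 0.76, ISM1 at 0.76 and PIPOX at 0.74, ACSM5 with PYGM, the muscle form of glycogen phosphorylase, at 0.75 and CD38 at 0.70. The lowest values were those of ABCA9, with IGSF9B at 0.70, RHBDL2 at 0.68 and PRICKLE2 at 0.68, and 109 tested genes without a name had a higher r than IGSF9B.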

How the data were processed

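Libraries from total RNA of the PFC were made with a stranded mRNA kit and sequenced as paired reads. The authors trimmed them with PRINSEQ, mapped them to ARS-UCD 1.2 with STAR 2.7.3a, sorted them with SAMtools 0.1.18 and deposited, per animal, the Cufflinks 2.2.1 FPKM and coverage of 43984 transcripts. Cuffmerge and Cuffdiff were run later, so the values used here hold neither counts nor a scaling between animals beyond library size. Depth was estimated by comparing coverage with FPKM, taking a fragment as 200 bases. Without counts, error was taken from the spread between animals.

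Gene FPKM was summed over transcripts and rescaled by median of ratios over genes above 0 in all 16 animals. The filter kept genes whose mean was 0.1 FPKM or more. Log2(FPKM + 0.1) was then fitted in R 4.3.3 by limma 3.58.1 (variance trend, two-sided, Benjamini-Hochberg adjustment), first by breed, then in a 3-group fit of La Quinta, Montealto and Wagyu. No covariate was used, since farm is nested in breed. Permutation tests were exact and two-sided, in Python 3.11.15 with numpy 2.4.6. The limma fit and the exact tests of correlation and of group difference were checked on simulated data. The sign-flip test was not checked in this way. Breed came from the series record and farm from the study's sample table.

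Symbols were paired with genes by chromosome, start and end. Of 1197 entries, 1163 were paired to 1 gene, and 109 symbols were left out because a further gene lay within the locus. The 6 genes, the lipid lists and the markers were chosen with earlier results of these data known. Named genes were members of those lists and the 3 named genes most like each of the 6, of which 1 is not reported here. Entries known only by an Ensembl identifier were not counted as named. Alternatives were FPKM as deposited, upper-quartile rescaling, pseudocounts of 1 and 0.01, a mean of at least 1 FPKM, no filter, no variance trend, array weights, the 8 Lidia animals alone and leaving out animals.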

Additional observations from a re-analysis of the deposited data

Results flagged for a closer look

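ABCA1 in La Quinta 3 was set apart from the other animals by its gap to the nearest one. At 4.14 FPKM it was above the other 7 Lidia animals, which ran from 1.04 to 2.15 FPKM (gap of 0.644 of the group's range), and above the other 3 La Quinta animals, which ran from 1.36 to 1.74 FPKM (gap of 0.863 of the range). As deposited, this animal was at 3.50 FPKM with a Cufflinks interval of 3.32 to 3.68 and about 763 fragments. Without it the log2 fold change of ABCA1 was 0.30 in place of 0.48 between the breeds and -0.02 in place of 0.34 between the farms. The 6 genes were examined in 4 groups each, 24 in all, and chance marks about 1 in 20.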

How the results depend on the processing

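Counts of calls depended on scaling and on weights. Between the breeds 826 genes were called, against totals of 0 on FPKM as deposited, 3086 with array weights and 206 without Wagyu 5 and La Quinta 4. The 15 genes called between the farms became 6 on FPKM as deposited, 8 with a mean of at least 1 FPKM, 54 with array weights, 8 without those 2 animals, 7 in the fit over the 8 Lidia animals alone, and 6 to 13 when each Lidia animal was left out in turn. The cause was not tested.

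Between the breeds the directions of all 6 genes held under every alternative. ABCA9 moved beyond the spread between animals, to -0.22 with a pseudocount of 1 and -1.12 with 0.01, as its level is close to the pseudocount, and it has no value at a mean of at least 1 FPKM. Leaving out each of the 16 animals in turn, chosen after seeing the data, gave 0.40 to 0.57 for SCD, 0.30 to 0.58 for ABCA1, -0.88 to -0.74 for ABCA9, 0.64 to 0.82 for ACSS1, 0.43 to 0.75 for ACSM5 and 0.41 to 0.53 for ABHD3.

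Between the farms FPKM as deposited reversed ABCA9 to 0.027, ACSS1 to 0.20, ACSM5 to 0.11 and ABHD3 to 0.29. Leaving out each Lidia animal in turn gave -0.81 to -0.56 for SCD, -0.019 to 0.50 for ABCA1, -0.37 to -0.08 for ABCA9, -0.22 to 0.061 for ACSS1, -0.62 to -0.03 for ACSM5 and -0.22 to 0.034 for ABHD3, the upper end for ACSS1 without Montealto 1. SCD in La Quinta against the Wagyu group ran from -0.0056, without La Quinta 2, to 0.25. On FPKM as deposited the exact permutation p of SCD between the farms was 0.371 in place of 0.0286. Other alternatives passed no member in the farm comparison.

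Member pairs at an adjusted p of at most 0.05 rose from 0 to 11 of 30 by exact permutation on FPKM as deposited and stayed at 0 under the other 5 alternatives, while 3 or 4 pairs had an unadjusted p under 0.05 there. Neighbouring levels differed in 7 of 10 comparisons at every pseudocount. No paired analysis of the groups was possible because they hold different animals. Depth limits ABCA9 most.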
